A study of Mus musculus with 12 samples.

Results

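Lgals3, Spp1 and Gpnmb were followed through brain RNA of 12 male C57BL/6 mice counted with the nCounter Glial Profiling Panel. These 3 of 757 endogenous genes were chosen because they had the largest fold rises after stroke among genes detected in sham-operated mice. Their rise over the shams is therefore given as a description, with no test, and the tests concern the comparison of genotypes after stroke. Lgals3 encodes galectin-3, a lectin that binds beta-galactosides and is found in the cytosol, at damaged lysosomes and outside the cell. Spp1 encodes osteopontin, a secreted phosphoprotein that binds integrins and CD44. Gpnmb encodes a transmembrane glycoprotein of endosomes, lysosomes and melanosomes. In injured brain all 3 are known as products of phagocytes, both microglia and macrophages that have entered from the blood, and they mark cells that take up debris and lipid.

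There were 3 groups of 4 mice, each mouse 1 sample: CD73flox mice after sham surgery (flox sham), CD73flox mice after 50 min of transient occlusion of the middle cerebral artery (flox tMCAO), and CD73ko mice after the same occlusion (CD73ko tMCAO). CD73 is the ectoenzyme that makes adenosine from AMP outside the cell. Whole brains were taken 3 days after surgery. The labels name no Cre driver or cell type for the deletion, and no CD73ko sham group was among the samples, so the effect of the genotype without stroke was not measured. The CD73 gene, Nt5e, is not counted by the panel, so the labels could not be checked on it.

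Total counts over the 770 genes were 293589 in flox sham replicate 4 and between 724655 and 848853 in the other 11 mice. After scaling by the TMM method, the values below are normalised counts. The background limit of a mouse was the mean of its 8 negative control probes plus 2 SD, and 690 genes exceeded it in at least 3 of 4 shams. All 3 genes exceeded it in all 12 mice. The labels give no batch or run, so no within-batch value was computed.

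The 3 genes varied together between mice, as described below, and the part of their promoters in this was not tested. The 250 bases before each annotated gene start are shown as a description. They are RefSeq sequence of assembly GRCm38.p6, plus strand, and lie at chr14:47373610-47373859 for Lgals3, chr5:104434861-104435110 for Spp1 and chr6:49036268-49036517 for Gpnmb, each ending at the base before the first exon. Capitals mark the only match to the motifs searched.
Lgals3: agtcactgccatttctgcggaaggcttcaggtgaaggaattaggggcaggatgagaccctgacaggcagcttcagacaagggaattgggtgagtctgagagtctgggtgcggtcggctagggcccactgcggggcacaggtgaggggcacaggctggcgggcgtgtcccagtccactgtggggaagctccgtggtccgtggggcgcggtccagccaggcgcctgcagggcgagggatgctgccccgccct
Spp1: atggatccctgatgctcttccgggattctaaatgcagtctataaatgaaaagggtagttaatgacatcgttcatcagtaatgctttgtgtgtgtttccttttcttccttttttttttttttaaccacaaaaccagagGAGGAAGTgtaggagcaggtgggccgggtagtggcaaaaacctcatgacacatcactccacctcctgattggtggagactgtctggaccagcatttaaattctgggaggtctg
Gpnmb: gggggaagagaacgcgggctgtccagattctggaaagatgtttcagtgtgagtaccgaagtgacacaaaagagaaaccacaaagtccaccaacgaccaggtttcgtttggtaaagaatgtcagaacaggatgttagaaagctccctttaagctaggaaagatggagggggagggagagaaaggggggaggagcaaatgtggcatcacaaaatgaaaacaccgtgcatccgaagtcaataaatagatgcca
The motifs were searched on both strands, and were chosen after the sequences had been seen. TGANTCA, the AP-1 motif, is in 6.75% of 32851 promoter windows, and the E-box CACGTG is in 6.02%. The M-box TCATGTG, bound by factors of the MiT/TFE family, is in 3.25%. GAGGAAGT, bound by PU.1, the factor that Spi1 encodes, is in 2.44% and was found in the Spp1 window, 113 to 106 bases before the start. A further Spp1 start in the table, at position 104436192, was not shown.

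Galectin-3 transcripts were scarce in sham brain and abundant after stroke. The normalised counts of Lgals3 were 19.5, 26.1, 34.3 and 30.4 in flox sham replicates 1 to 4, with a mean of 27.6 ± 6.34 (SD, n = 4). In flox tMCAO they were 379.7, 333.5, 316.1 and 332.1 (340.3 ± 27.4, SD, n = 4). In CD73ko tMCAO they were 187.5, 323.2, 498.6 and 544.2 (388.4 ± 164.4, SD, n = 4). Every tMCAO mouse was above every sham, and the CD73ko mice lay on both sides of the flox tMCAO mice. The sham level rests on few molecules: the raw count was 12 in flox sham replicate 4 (95% exact Poisson interval 6.201 to 20.96) and 38 in replicate 3 (26.89 to 52.16), and such intervals cover counting error only.

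Osteopontin transcripts differed little between shams and varied widely between CD73ko mice after stroke. Spp1 stood at 374.05, 365.5, 346.4 and 372.7 in flox sham (365 ± 12.8, SD, n = 4). It stood at 3939, 4035, 3251 and 3664 in flox tMCAO (3722 ± 351, SD, n = 4). In CD73ko tMCAO the values were 1879, 3418, 7087 and 7633 (5004 ± 2801, SD, n = 4). The highest CD73ko mouse had 4.062 times the count of the lowest, against 1.241 times among the flox tMCAO mice and 1.08 times among the shams. CD73ko replicates 3 and 4 were above all flox tMCAO mice and replicate 1 was below all of them.

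Gpnmb was low in shams, at 39.9, 30.8, 37.9 and 32.96 (35.4 ± 4.23, SD, n = 4). In flox tMCAO it was 403.6, 354.96, 213.3 and 366.8 (334.7 ± 83.5, SD, n = 4), and the third of these mice was below the other three. In CD73ko tMCAO it was 171.5, 328.5, 510.7 and 680.8 (422.9 ± 220.8, SD, n = 4). As with Lgals3 and Spp1, no tMCAO mouse overlapped the shams and the CD73ko values enclosed those of flox tMCAO. Of 757 genes, 25.2% did not overlap between flox tMCAO and sham (14.5% higher in flox tMCAO), and 26.4% did not overlap between CD73ko tMCAO and sham (16.9% higher in CD73ko tMCAO). Nothing is read from this, because the 3 genes were chosen on that rise. In whole-brain RNA, more cells of a type and more RNA per cell cannot be told apart.

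**Figure D1:**
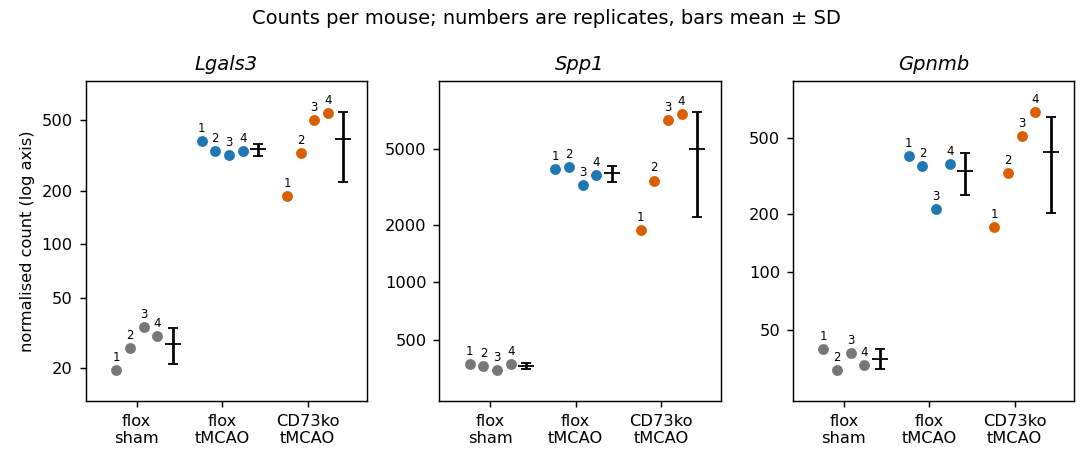
Normalised counts (log axis) of Lgals3, Spp1 and Gpnmb in 4 flox sham, 4 flox tMCAO and 4 CD73ko tMCAO mice; points are mice labelled by replicate, bars the mean ± SD. Every tMCAO point lies above every sham point, and CD73ko replicate 1 lies below and replicates 3 and 4 lie above all flox tMCAO mice.

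In the edgeR fit, the log2 rise from flox sham to flox tMCAO was 3.65 ± 0.33 (SE) for Lgals3, 3.35 ± 0.35 for Spp1 and 3.22 ± 0.40 for Gpnmb, or 12.52-fold, 10.22-fold and 9.321-fold. Just outside the choice were Serpina3n, a serine protease inhibitor of reactive astrocytes, at 2.93 ± 0.36, and Lyz2, a lysozyme of myeloid cells, at 2.65 ± 0.40. From flox sham to CD73ko tMCAO the rises were 3.84 ± 0.32, 3.78 ± 0.35 and 3.56 ± 0.40, or 14.3-fold, 13.75-fold and 11.79-fold. Both comparisons use the same 4 shams. Within single tMCAO mice, Lgals3 ranked 1 or 2 of the 690 genes by its rise over the sham mean, Spp1 between 1 and 3, and Gpnmb between 2 and 5.

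The comparison of CD73ko with flox tMCAO asks whether the levels of these genes after stroke differ between the genotypes. Without a CD73ko sham group it cannot tell a different response to stroke from a difference present before stroke. None of the 3 passed the test. edgeR's quasi-likelihood test gave Lgals3 a log2 difference of 0.19 ± 0.23 (SE; 95% interval -0.31 to 0.69; adjusted p = 0.843). Spp1 differed by 0.43 ± 0.30 (-0.21 to 1.07; adjusted p = 0.835) and Gpnmb by 0.34 ± 0.30 (-0.30 to 0.98; adjusted p = 0.835). As folds, the intervals run from 0.806 to 1.616 for Lgals3, from 0.863 to 2.094 for Spp1 and from 0.810 to 1.975 for Gpnmb. Differences within these intervals are not excluded by the data. The fit shares a single spread per gene over all groups. The SD of the log2 level was 0.70, 0.96 and 0.86 in CD73ko tMCAO, against 0.11, 0.14 and 0.41 in flox tMCAO. The intervals may therefore be too narrow, and they do not exclude larger differences either. Exact two-sided permutation tests of the mean log2 level gave p = 0.971, 0.743 and 0.686, each 0.971 after adjustment over the 3 genes, where the smallest p that 70 assignments allow is 0.0286. edgeR called 0 of 757 genes (0%) in this comparison, as did limma and DESeq2, and 47 genes (6.21%) had an unadjusted edgeR p under 0.05. The 2 groups overlapped in all 3 genes, whereas 3.83% of genes did not overlap, 2.77% being higher in CD73ko. Leaving out CD73ko replicate 1 moved the log2 differences to 0.40, 0.67 and 0.58 (edgeR adjusted p = 0.375, 0.147 and 0.3725), and leaving out CD73ko replicate 4 moved them to -0.02, 0.15 and 0.0092 (edgeR adjusted p = 0.996, 0.9552 and 0.996).

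The CD73ko tMCAO mice differed more among themselves in these genes than the flox tMCAO mice did. The SD of the log2 level over the 4 CD73ko tMCAO mice was 0.96 for Spp1, 0.86 for Gpnmb and 0.70 for Lgals3, ranking 1, 5 and 7 among the 687 genes above background in all 8 tMCAO mice. The genes between them were Lyz2, the chemokine Ccl2, Ms4a4a, a membrane protein of macrophages, and the transglutaminase Tgm1. Over the 4 flox tMCAO mice the SD was 0.14 for Spp1, 0.41 for Gpnmb and 0.11 for Lgals3, ranking 282, 34 and 355. A wide spread was not general in the CD73ko mice: the median SD was 0.09 there and 0.12 in flox tMCAO, and 304 of 687 genes (44.3%) had the larger SD in CD73ko. The difference in spread between the groups was not tested.

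**Figure D2:**
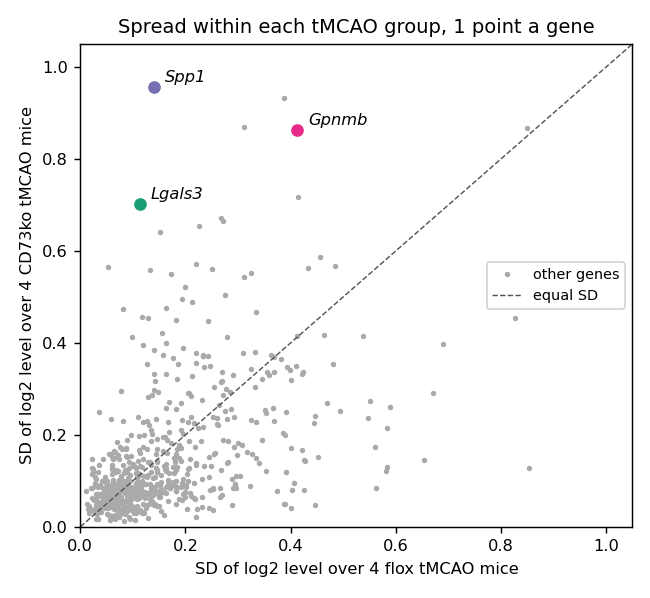
SD of the log2 level over 4 flox tMCAO mice (horizontal) against 4 CD73ko tMCAO mice (vertical), 1 point for each of 687 genes, with a dashed line at equal SD. Spp1 (0.14 and 0.96), Lgals3 (0.11 and 0.70) and Gpnmb (0.41 and 0.86) lie well above the line.

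The 3 genes ordered the mice alike. For each of them CD73ko replicate 1 was lowest of the 8 tMCAO mice, flox replicate 3 was next and CD73ko replicate 2 the third, and CD73ko replicates 3 and 4 were highest. Lgals3 and Spp1 correlated with Pearson r = 0.983 over the 8 mice (exact permutation p = 0.000174, adjusted over 3 pairs 0.000521; Spearman rho = 0.976, exact p = 0.000397, adjusted 0.000595). Lgals3 and Gpnmb gave r = 0.933 (exact p = 0.00146, adjusted 0.00219; rho = 0.976, exact p = 0.000397, adjusted 0.000595). Spp1 and Gpnmb gave r = 0.937 (exact p = 0.00275, adjusted 0.00275; rho = 0.929, exact p = 0.00223, adjusted 0.00223). Without CD73ko replicates 1 and 4, r was 0.964 for Lgals3 and Spp1 (exact permutation p = 0.00972, rho = 0.943, n = 6). For Gpnmb it was then 0.791 with Lgals3 (exact permutation p = 0.104, rho = 0.943, n = 6) and 0.791 with Spp1 (exact permutation p = 0.10, rho = 0.8286, n = 6), so these 2 relations kept their direction and did not pass the test by Pearson's r. Without flox replicate 3 alone, r was 0.990 for Lgals3 and Gpnmb and 0.972 for Spp1 and Gpnmb. Levels taken as deviations from the group means gave r of 0.987, 0.935 and 0.935.

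**Figure D3:**
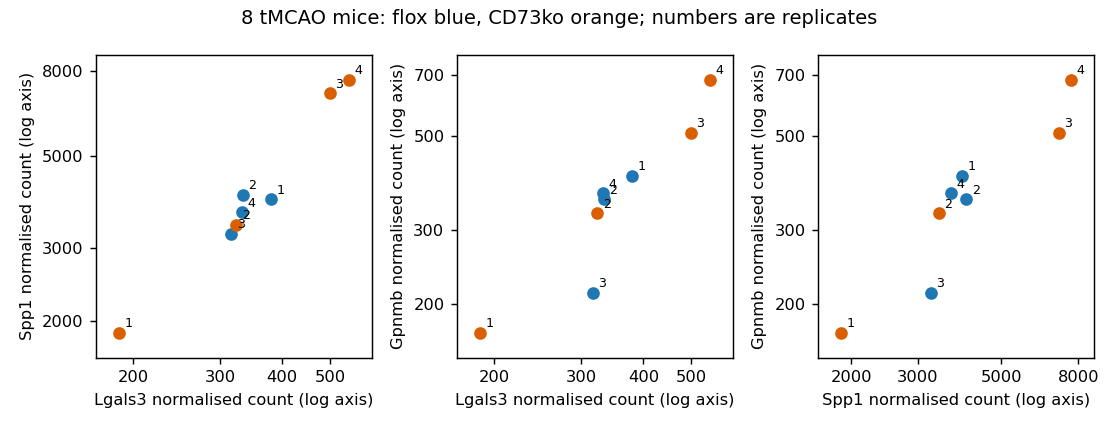
Normalised counts (log axes) of each pair of genes in 8 tMCAO mice, flox in blue and CD73ko in orange, labelled by replicate. CD73ko replicate 1 is lowest and replicates 3 and 4 are highest in each panel, and flox replicate 3 has less Gpnmb than the other flox mice.

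The genes whose levels were most like theirs over the 8 tMCAO mice were largely known from myeloid cells. They are given as a description, over 8 mice whose genes are each read from the same library. The closest to Lgals3 were Lyz2 (r = 0.951), Tyrobp, a signalling adaptor of Trem2 (0.947), Cd84 (0.923), and the lysosomal proteases Ctss (0.918) and Lgmn (0.917). The closest to Spp1 were Tyrobp (0.954), the complement receptor C3ar1 (0.947), Lyz2 (0.940), Lgmn (0.937) and Ctss (0.936). Among the closest to Gpnmb were Lyz2 (0.977), Tyrobp (0.957), S100a10 (0.946) and Spi1 (0.927). The median r over the 684 other genes was 0.03 for Lgals3, 0.04 for Spp1 and 0.06 for Gpnmb.

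Among the CD73ko tMCAO mice, the pan-myeloid, the monocyte and macrophage and the astrocyte markers were lowest in replicate 1, as the 3 genes were, and highest in replicate 4. The mean log2 level of 6 pan-myeloid genes (Aif1, Csf1r, Ptprc, Itgam, Tyrobp and Spi1; 6 of 8 listed) was above the sham mean by 0.99, 1.36, 1.60 and 1.80 in CD73ko tMCAO replicates 1 to 4. It was above by 1.30, 1.20, 0.69 and 1.36 in flox tMCAO replicates 1 to 4. The 5 of 17 monocyte and macrophage markers on the panel stood at 1.23, 1.61, 2.24 and 2.28 in CD73ko tMCAO. They stood at 1.60, 1.66, 1.66 and 1.56 in flox tMCAO. Flox replicate 3, lowest of its group in the 3 genes, was thus not low by this mean of log2 levels. By their summed normalised count it was lowest of its group, at 490.59 against 566.52 to 636.01 in the other flox tMCAO mice. Among these markers Lyz2 stood at 230.75 in flox replicate 3, against 325.83 to 416.91 in the others. Msr1 stood at 40.7 in flox replicate 3, against 31.0, 34.1 and 44.1 in the others. It was above background in 0 of 4 shams, so its part in the mean is a rise from the floor. Cd163 was at log2 0.01 in flox and 0.31 in CD73ko tMCAO against sham and was not called. The sum was 119.66 to 174.96 in sham and 331.81 to 1004.9 in CD73ko tMCAO. The lowest and the highest CD73ko mice by these markers were the lowest and the highest by Lgals3, Spp1 and Gpnmb. The 8 of 10 astrocyte markers counted stood at 0.79, 1.08, 1.16 and 1.22 in CD73ko tMCAO and at 0.87, 0.87, 1.08 and 1.08 in flox tMCAO. Gfap, Vim and Serpina3n made up most of this mean, with log2 rises in flox tMCAO of 2.05, 1.89 and 2.93. Aldh1l1, S100b, Aqp4, Slc1a3 and Sox9 were at 0.06 to 0.26 there and were not called. Of these only Aqp4 was called in CD73ko tMCAO against sham, at 0.46. The 7 of 13 markers of endothelium and pericytes stood at 0.02, 0.28, 0.43 and 0.39 in CD73ko tMCAO, lowest in the same mouse, and at 0.25, 0.43, 0.47 and 0.23 in flox tMCAO. Homeostatic microglia markers (14 of 14) stood at 0.61, 0.67, 0.92 and 0.85 in CD73ko tMCAO, also lowest in replicate 1. Neuron markers (10 of 14) stood at -0.05, -0.15, -0.25 and -0.17 in CD73ko tMCAO, nearest the sham mean in replicate 1. Oligodendrocyte markers (10 of 12) stood at 0.24, 0.28, 0.38 and 0.20 in CD73ko tMCAO, lowest in replicate 4. The part of any of these cell types in the spread was not tested. Of neutrophil markers only Csf3r was counted, and Cd3g, Cd8b1 and Ncr1, defining markers of lymphocytes and NK cells, were above background in none of the 12 mice.

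Flox tMCAO replicate 3, lowest of its group in all 3 genes, differed from the other flox mice in other cell types too. Its homeostatic microglia markers (14 of 14 counted) were 0.10 above the sham mean, against 0.52 to 0.75 in the other flox tMCAO mice. Its oligodendrocyte markers (10 of 12 counted) were 0.38 below the sham mean on the log2 scale (-0.38), against 0.22 to 0.28 above it in the others. The part of these in its Gpnmb level was not tested.

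Each of the 3 genes, chosen for its rise, stood further above the shams than the pan-myeloid mean did. Relative to the pan-myeloid mean, Lgals3 was 2.47 ± 0.25 above the shams in flox tMCAO and 2.24 ± 0.36 in CD73ko tMCAO (log2, SD, n = 4 each). The same measure was 2.21 ± 0.21 and 2.12 ± 0.62 for Spp1, and 2.04 ± 0.13 and 1.94 ± 0.52 for Gpnmb. On this measure flox replicate 3 was the highest flox tMCAO mouse for Lgals3 (2.81, against 2.21 to 2.47 in the others) and for Spp1 (2.47, against 1.96 to 2.27), and the lowest for Gpnmb (1.88, against 1.98 to 2.19). The CD73ko minus flox differences were -0.23, -0.08 and -0.10, with exact two-sided permutation p = 0.429, 0.8286 and 0.743, and 0.8286 each after adjustment over the 3 genes. Between CD73ko mice, Spp1 still ranged from 1.37 to 2.67 and Gpnmb from 1.26 to 2.44.

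**Figure D4:**
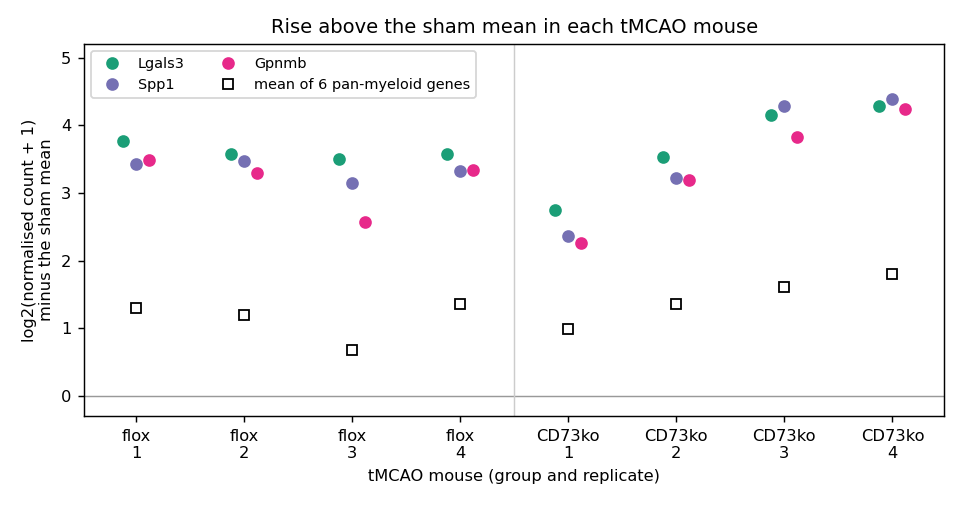
Rise of Lgals3, Spp1, Gpnmb and the mean of 6 pan-myeloid genes above the sham mean (log2 of normalised count + 1) in each of 8 tMCAO mice. In every mouse the 3 genes lie above the pan-myeloid mean, which runs from 0.69 in flox replicate 3 to 1.80 in CD73ko replicate 4.

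Other genes of the same pathways were read against the background of 167 of 757 genes (22.1%) called by edgeR between flox tMCAO and flox sham, 107 higher (14.1%) and 60 lower (7.93%). With housekeeping scaling the split was 89 higher and 99 lower, and with median scaling 97 and 106. Between CD73ko tMCAO and flox sham 172 genes (22.7%) were called, 122 higher (16.1%) and 50 lower (6.61%), against 101 and 117 with housekeeping scaling, 102 and 120 with median scaling, and 121 and 92 by DESeq2. The median log2 change of all genes was -0.01 in the first comparison and 0.00 in the second. In each list below, 0 genes were called between CD73ko and flox tMCAO. The lists share genes, among them Trem2, Lamp1, Lamp2, Itgam, Cd68, Ctsd, Fabp5 and Tyrobp, so their counts are not separate results.

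Of 10 listed partners of galectin-3, 5 were counted, and 3 rose and 0 fell in flox tMCAO (median log2 change 0.37). Trem2, a lipid-sensing receptor of microglia that galectin-3 can bind, rose by 1.28 ± 0.22 (SE, edgeR adjusted p = 0.000713). The lysosomal membrane glycoprotein Lamp2 rose by 0.34 ± 0.06 (adjusted p = 0.00107). Its relative Lamp1 passed at 0.20 ± 0.06 (adjusted p = 0.0264), a call lost with housekeeping scaling (0.14, adjusted p = 0.1925). Mertk, a receptor for the uptake of dying cells, was at 0.37 ± 0.16 and did not pass (adjusted p = 0.117).

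Of 12 listed receptors of osteopontin and GPNMB only Itgam and Itgax were counted, so most of these receptors were not measured. Itgam, the integrin subunit of complement receptor 3, rose by 1.10 ± 0.23 in flox tMCAO (edgeR adjusted p = 0.00304) and by 1.67 in CD73ko tMCAO. Itgax lay near background, with mean normalised counts of 6.67 in flox tMCAO and 7.01 in CD73ko tMCAO, and did not pass.

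Many lysosomal genes also rose after stroke. Of 27 listed MiT/TFE factors and lysosomal genes 12 were counted, and 9 rose and 0 fell in both comparisons with sham (median log2 change 0.92 in flox and 1.04 in CD73ko tMCAO). With housekeeping or median scaling 8 rose and 1, the proton pump subunit Atp6v1a, fell in flox tMCAO. Cd68, a lysosomal glycoprotein of phagocytes, rose by 2.47 ± 0.20 (SE, edgeR adjusted p = 2.13e-06). The protease Ctsd rose by 1.49 ± 0.16 (adjusted p = 9.29e-06), Ctss by 1.44 ± 0.15 (adjusted p = 9.37e-06) and Grn, which encodes progranulin, by 1.16 ± 0.13 (adjusted p = 2.06e-05). The only MiT/TFE factor counted was Tfec, at -0.09 ± 0.44 and above background in 1 sham.

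Of 29 listed genes of disease-associated microglia, a state described around amyloid plaques in mice, 23 were counted. In flox tMCAO 16 rose and 0 fell (median log2 change 0.74), and in CD73ko tMCAO 17 rose and 0 fell (1.08). With housekeeping scaling 13 rose and 0 fell in flox tMCAO. Tyrobp rose by 1.84 ± 0.19 (SE, edgeR adjusted p = 7.29e-06). Cst7, a protease inhibitor, was above background in 0 of 4 shams (mean 6.01 normalised counts), and its means were 47.2 in flox and 80.6 in CD73ko tMCAO (edgeR adjusted p = 1.43e-05 for flox tMCAO against sham), so no fold is given.

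Of 17 listed genes of lipid-laden macrophages 5 were counted, and 3 rose and 0 fell in each comparison with sham (median log2 change 0.50 in flox and 0.41 in CD73ko tMCAO). The fatty acid binding protein Fabp5 rose by 0.50 ± 0.11 and the cholesterol exporter Abca1 by 0.53 ± 0.12 in flox tMCAO (SE, edgeR adjusted p = 0.00436 for each). The scavenger receptor Msr1 was above background in 0 of 4 shams (mean 5.64 normalised counts), with means of 37.5 in flox and 52.8 in CD73ko tMCAO (edgeR adjusted p = 0.000239 for flox tMCAO against sham). Lpl, lipoprotein lipase, was at 0.28 ± 0.16 and did not pass (adjusted p = 0.267).

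All 6 pan-myeloid genes counted rose in both comparisons with sham (median log2 change 1.16 in flox and 1.48 in CD73ko tMCAO). In flox tMCAO Spi1 rose by 1.20 ± 0.23 (SE, edgeR adjusted p = 0.00143) and Csf1r, the receptor that keeps microglia alive, by 0.64 ± 0.12 (adjusted p = 0.00177). The list medians were all below the rises of Lgals3, Spp1 and Gpnmb, as the choice of those 3 genes fixes.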

How the data were processed

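The deposited value table holds raw counts, whole numbers of barcodes per gene and mouse with no normalisation, as the values show; counting software is not given in the sources used here. Its 784 rows are 770 genes, of which 13 are housekeeping genes, and 14 control probes (8 negative, 6 positive), which stayed out of totals and tests. The authors also deposited 2 normalised tables, left unused because the 11 sample names in each match no label. Counts were scaled by TMM and tested with edgeR 4.0.16 (quasi-likelihood F test, R 4.3.3) over 12 mice and 757 genes, Benjamini-Hochberg at 0.05; the SE is the absolute log2 change over the square root of F. Single values used exact permutation tests (scipy 1.17.1) on log2(normalised count + 1). limma 3.58.1, DESeq2 1.42.0, other scalings and leaving out each mouse were alternatives. Scripts were tested on simulated data. Separate mice are the replicates. From each list up to 4 genes with the smallest edgeR p in flox tMCAO against sham were named, and for each of the 3 genes the 5 most like it, of which 1 gene is not reported here. The 3 genes and the lists were chosen with earlier results of these data known, so the list results are no independent support. Promoter windows are RefSeq sequence, assembly GRCm38.p6.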

Additional observations from a re-analysis of the deposited data

Results flagged for a closer look

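In groups of 4 mice, 2 values stood apart from the rest of their group by Dixon's criterion, out of 90 groups examined, of which chance flags about 1 in 20. The total count of flox sham replicate 4 was 293589. Without this mouse the log2 rises of Lgals3, Spp1 and Gpnmb in flox tMCAO were 3.67, 3.36 and 3.20. Mertk in CD73ko tMCAO replicate 4 had a normalised count of 144, against 115.3 to 120.0 in the other CD73ko mice.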

How the results depend on the processing

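Of 716 values over 42 results under other settings, 701 kept their direction and their side of the threshold or stayed within the margin of their count. The rises of the 3 genes over sham moved little: in flox tMCAO, settings other than leaving out a mouse gave log2 3.5654 to 4.0104 for Lgals3, 3.285 to 3.3753 for Spp1 and 3.1446 to 3.4923 for Gpnmb, the upper ends of Lgals3 and Gpnmb with background subtracted. Leaving out 1 mouse at a time gave 110 to 229 genes called between CD73ko tMCAO and flox sham, with 110 (95 higher, 15 lower) without CD73ko replicate 3. It gave log2 differences of CD73ko from flox tMCAO of -0.017182 to 0.39599 for Lgals3 (edgeR adjusted p = 0.375 to 0.996), with the sign turned without CD73ko replicate 4. Relative to the pan-myeloid genes it gave -0.26827 to 0.16604 for Spp1, where the sign turned without CD73ko replicate 1 (0.16604), CD73ko replicate 2 (0.0015279) or flox tMCAO replicate 3 (0.0013774), and -0.26906 to 0.12203 for Gpnmb, where it turned without CD73ko replicate 1. The cause was not tested. The call of Lamp1 was lost in 8 alternatives, and Mertk passed without flox tMCAO replicate 1 (adjusted p = 0.04786). The counts by list, and the settings applied to them, were added after the data were seen. The mice were treated as unpaired, since the labels give no pairing by replicate number. Deviations of same-numbered mice correlated between -0.248 and 0.169. Mice of different numbers were not set beside them, so these values do not decide whether mice were paired. With the replicate number as a block edgeR called 145 genes in flox tMCAO and 146 in CD73ko tMCAO against sham and 0 between genotypes. The 4 mice a group, the few sham counts of Lgals3 and Gpnmb and the lack of a CD73ko sham limit these results.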
